A study of Mus musculus with 9 samples.

Results

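The collapsin response mediator proteins (CRMPs) are encoded by 5 genes, Crmp1, Dpysl2, Dpysl3, Dpysl4 and Dpysl5, and their transcripts were followed in whole NB9464 tumors. The 5 genes are 5 of the 54429 symbols in the count table. Of these, 4 had a count in any library, and 3 (Dpysl3, Crmp1 and Dpysl2) were among the 15931 genes that passed the low-count filter and were tested. The family was chosen by a measured value, the Dpysl3 counts of these same tumors, which were higher than in vehicle in both treated groups. Those Dpysl3 values are therefore given as a description with no p-value, and nothing is read from a count of members that includes them. The tests concern its paralogs and the contrast between the treated groups.

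NB9464 is a mouse neuroblastoma line with amplified MYCN, and its cells were placed under the skin of wild-type C57BL/6 mice, which were a few weeks old by the study's methods. Treatment started at a tumor volume of 250 mm3, and 3 tumors were sequenced from each of 3 groups. Vehicle mice carried the same tumors without active treatment. R788 + anti-PDL1 mice received R788 (fostamatinib, an inhibitor of the kinase Syk) at 50 mg/kg together with the checkpoint-blocking antibody clone 10F.9G2, and Rad + R788 + anti-PDL1 mice received these agents with 10 Gy of radiation. No group with a single agent was analysed here. All tumors derive from a single cell line in hosts with an intact immune system. The labels do not tie each library to its own mouse, so the p-values measure the spread between these libraries.

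CRMPs are cytosolic phosphoproteins that bind tubulin and actin regulators and shape growth cones and neurites. They relay the signal of class 3 semaphorins, which are secreted guidance cues received by neuropilins and plexins, and their activity is set by kinases such as Cdk5, Gsk3b and Dyrk2. The proteins resemble dihydropyrimidinase, an enzyme of pyrimidine breakdown, from which the Dpysl symbols (dihydropyrimidinase-like) take their name. In the developing nervous system and in neural crest derivatives CRMPs are known as markers of newly formed neurons.

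The tissue label was read against its markers. Of 12 noradrenergic neuroblast markers, Th, the rate-limiting enzyme of catecholamine synthesis, had a count of 0 in all 9 libraries, and Phox2a did not exceed 3 counts. Hand2 (6545 to 12901 counts) and Mycn (1265 to 6107 counts) were present in every library. Fibroblast markers summed to between 2567 and 5534 CPM. In bulk RNA, fewer cells of a type and less RNA per cell cannot be told apart.

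Total counts lay between 18276683 and 23397886 per library. The first Rad + R788 + anti-PDL1 library stood apart. Its TMM scaling factor was 0.743, against 0.975 to 1.12 in the other 8 libraries, and 1.97% of its counts were mitochondrial, where the others had 3.48% to 5.71%. CRMP results that rest on it are given without it or with the scaling by total counts alone, and for other named genes the log2 value without it is given where the printed fold change moved most.

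The members lie at separate loci and are similar in coding sequence, so the first check was whether reads of one member could be counted for another. In the GENCODE M21 annotation (GRCm38) Dpysl2 (ENSMUSG00000022048.8) lies at chr14:66802864-66868688 on the minus strand. Crmp1 (ENSMUSG00000029121.16) lies at chr5:37241940-37292133 on the plus strand. Dpysl5 (ENSMUSG00000029168.14) lies on the same chromosome and strand at chr5:30711564-30799375, and Dpysl4 (ENSMUSG00000025478.15) at chr7:139086001-139102704 on the plus strand. Crmp1 overlaps Evc on the other strand, but 0 of its exon bases fall in Evc exons. None of the 10 pairs of members shared a run of 31 bases in their annotated transcripts. The longest shared run of a pair ranged from 13 to 29 bases, and was at most 22 bases for pairs with Dpysl3. The longest runs came from a single coding site, shown here because it is where the counts of Crmp1, Dpysl2 and Dpysl4 could be confused most easily. Capitals mark the 26 bases that the 3 genes share.
Crmp1 with Dpysl2: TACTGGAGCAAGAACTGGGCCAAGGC
Crmp1 with Dpysl4: cacTACTGGAGCAAGAACTGGGCCAAGGC
Dpysl2 with Dpysl4: TACTGGAGCAAGAACTGGGCCAAGGCtgc
This site starts at coding base 1210 of an annotated Crmp1 transcript and at coding base 868 of Dpysl2 and Dpysl4. Dpysl4 carries the whole 26 bases and yet had no count in any library. Reads that reach beyond the site differ between the genes.

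RefSeq upstream windows of 250 bases (GRCm38.p6) were at hand for Crmp1 and Dpysl5, which differ widely in count. The window before the upstream RefSeq start of Crmp1 (chr5:37241808-37242057, plus strand), of which 118 bases lie inside the gene as GENCODE annotates it, and that before Dpysl5 (chr5:30711314-30711563, plus strand) are shown with each CG dinucleotide in capitals.
Crmp1: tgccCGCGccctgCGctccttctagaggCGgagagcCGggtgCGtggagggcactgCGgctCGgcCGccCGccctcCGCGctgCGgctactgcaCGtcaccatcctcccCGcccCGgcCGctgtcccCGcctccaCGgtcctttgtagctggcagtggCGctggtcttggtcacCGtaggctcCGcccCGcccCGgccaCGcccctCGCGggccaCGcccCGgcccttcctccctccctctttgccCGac
Dpysl5: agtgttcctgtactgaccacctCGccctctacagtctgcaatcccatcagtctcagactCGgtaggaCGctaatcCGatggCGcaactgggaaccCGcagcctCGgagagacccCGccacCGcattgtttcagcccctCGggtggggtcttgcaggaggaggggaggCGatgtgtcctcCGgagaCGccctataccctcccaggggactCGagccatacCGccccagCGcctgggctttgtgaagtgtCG
The Crmp1 window holds 30 CG dinucleotides and the Dpysl5 window 17. A second RefSeq window of Crmp1, at a start further downstream (chr5:37245514-37245763), holds 16. The median over 32851 windows of the same length was 6, and 27.3% of them held 15 or more. The letters CACGTG, the palindromic E-box that MYC proteins bind, were not found in any of these windows, whereas 6.02% of all windows hold them. Thus the almost silent gene and the expressed gene both had windows with more CG dinucleotides than the median.

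Dpysl3, whose protein is also called CRMP4, was the member that chose the family. The gene (ENSMUSG00000024501.20) lies at chr18:43320984-43438286 on the minus strand (GRCm38). Its counts were 270, 193 and 173 in vehicle replicates 1 to 3. They were 1142, 1694 and 1222 in R788 + anti-PDL1, and 502, 1147 and 1234 in Rad + R788 + anti-PDL1. On the TMM-normalised CPM scale, in which counts are divided by the scaled library total, the vehicle tumors held 14.9, 8.67 and 9.48 CPM. R788 + anti-PDL1 tumors held 50.4, 64.7 and 50.1 CPM, and Rad + R788 + anti-PDL1 tumors 37.0, 58.2 and 56.4 CPM. All 6 treated tumors lay above all 3 vehicle tumors, and the lowest treated tumor was the library that stood apart. By total counts alone that library held 27.5 CPM, still above the highest vehicle value of 14.5 CPM. The group levels were 11.02 ± 3.39, 55.1 ± 8.39 and 50.5 ± 11.7 CPM (SD, n = 3 each). The fitted log2 fold changes against vehicle were 2.32 ± 0.28 (SE) for R788 + anti-PDL1 and 2.2 ± 0.28 for Rad + R788 + anti-PDL1, or 5-fold and 4.59-fold. The 2 contrasts share the vehicle tumors.

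Between the treated groups, a contrast that the choice of the family did not use, Dpysl3 did not pass the test. The log2 difference of Rad + R788 + anti-PDL1 from R788 + anti-PDL1 was -0.12 ± 0.27 (SE), with a 95% interval of -0.725 to 0.478 (edgeR adjusted p = 0.817). The groups overlapped, and an exact two-sided permutation test gave p = 0.8, where 3 tumors against 3 cannot give less than 0.1. Without the first Rad + R788 + anti-PDL1 library the difference was 0.0626. The order of the levels was thus vehicle lowest, with the treated groups not told apart.

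**Figure D1:**
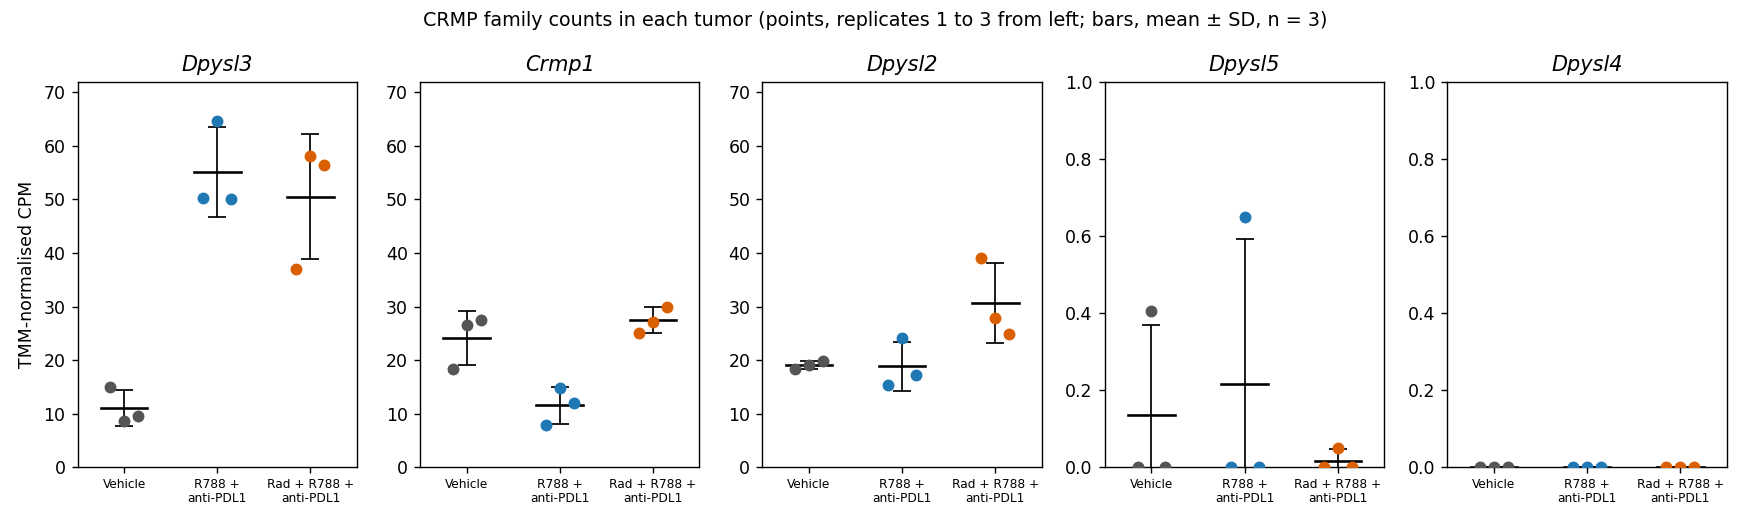
TMM-normalised CPM of each CRMP gene (y axis, linear) in each tumor, by treatment group (x axis); points are tumors, replicates 1 to 3 from the left, and bars give mean ± SD (n = 3). The 3 panels on the left share an axis from 0 to 72 CPM and the 2 on the right run from 0 to 1 CPM. Dpysl3 in all 6 treated tumors (37.0 to 64.7 CPM) lies above the vehicle tumors, Crmp1 is lowest in R788 + anti-PDL1, and Dpysl4 is at 0.

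Crmp1, a mediator of semaphorin 3A signalling, had another order. Vehicle tumors held 18.3, 26.5 and 27.5 CPM, R788 + anti-PDL1 tumors 7.94, 14.8 and 11.9 CPM, and Rad + R788 + anti-PDL1 tumors 25.1, 27.2 and 30.0 CPM. All 3 R788 + anti-PDL1 tumors lay below every other tumor, while the vehicle and Rad + R788 + anti-PDL1 tumors overlapped. The group levels were 24.1 ± 5.08, 11.6 ± 3.46 and 27.4 ± 2.45 CPM (SD, n = 3 each). Against vehicle the log2 fold change in R788 + anti-PDL1 was -1.06 ± 0.27 (SE; 95% interval -1.67 to -0.451). It did not pass the test over all genes (edgeR adjusted p = 0.131), nor did the 2.37-fold higher level in Rad + R788 + anti-PDL1 than in R788 + anti-PDL1 (log2 1.25 ± 0.27, interval 0.633 to 1.86, adjusted p = 0.157). Each of these 2 contrasts gave an exact permutation p of 0.1, the smallest that 3 against 3 allows. With DESeq2 both passed, with adjusted p of 0.0133 and 0.00203, as did 4.83% and 5.16% of all genes. Between Rad + R788 + anti-PDL1 and vehicle the log2 difference was 0.19 ± 0.27 (interval -0.418 to 0.789, edgeR adjusted p = 0.741). With total-count scaling the first Rad + R788 + anti-PDL1 library held 18.6 CPM, above the R788 + anti-PDL1 tumors (8.34 to 16.6 CPM) but near the lowest vehicle tumor (17.8 CPM).

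Dpysl2 encodes CRMP2, the best-studied member, which binds tubulin dimers and promotes axon growth. Its vehicle tumors held 18.3, 19.0 and 19.9 CPM, R788 + anti-PDL1 tumors 15.3, 24.0 and 17.3 CPM, and Rad + R788 + anti-PDL1 tumors 39.1, 27.9 and 24.9 CPM. The vehicle and R788 + anti-PDL1 tumors overlapped, and the Rad + R788 + anti-PDL1 tumors lay above both. The levels were 19.1 ± 0.810, 18.9 ± 4.59 and 30.6 ± 7.47 CPM (SD, n = 3 each). For R788 + anti-PDL1 against vehicle the log2 difference was -0.02 ± 0.25 (interval -0.569 to 0.538, edgeR adjusted p = 0.99). Rad + R788 + anti-PDL1 was 1.6-fold higher than vehicle (log2 0.68 ± 0.25, interval 0.129 to 1.24, adjusted p = 0.321) and differed from R788 + anti-PDL1 by a log2 of 0.70 ± 0.25 (interval 0.144 to 1.25, adjusted p = 0.228). Neither passed the test, and each had an exact permutation p of 0.1. The highest value came from the library that stood apart. By total counts alone it held 29.0 CPM, close to 28.9 and 26.8 CPM in the other 2 tumors of its group, and the lowest of these then fell just under the highest R788 + anti-PDL1 tumor (26.9 CPM).

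Dpysl5 (CRMP5) and Dpysl4 (CRMP3) were at or near 0. Dpysl5 had 9 counts in vehicle replicate 2, 17 in R788 + anti-PDL1 replicate 2 and 1 in Rad + R788 + anti-PDL1 replicate 2, and 0 in the other 6 libraries. Dpysl4 had 0 counts in all 9 libraries. A count of 0 allows up to 3 counts, or 0.115 to 0.221 CPM in these libraries, for counting error only. Differences in these genes were not detectable at this depth. Dpys, the dihydropyrimidinase gene itself, had 1 count in all.

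The counts of members past the thresholds were read against those of all genes. In R788 + anti-PDL1 against vehicle, 1 of the 3 tested members had an adjusted p under 0.05, as had 0.678% of all genes, and 2 did not overlap between the groups, as did 30.1% of all genes. In Rad + R788 + anti-PDL1 against vehicle these numbers were 1 member beside 0.0439% of genes, and 2 members without overlap beside 20.5%. The member past the threshold was Dpysl3 in each case, and so was 1 of the 2 members without overlap. The rise of Dpysl3 against vehicle chose the family, so nothing is read from these. That leaves Crmp1 without overlap in the first comparison and Dpysl2 in the second. Between the treated groups 0 members passed, beside 0.00628% of genes, and 2 did not overlap, beside 27.4%. With DESeq2, 1 member (Crmp1) passed there, beside 5.16% of all genes. At an unadjusted edgeR p under 0.05 both Crmp1 and Dpysl2 passed between the treated groups, where 18.4% of all genes did.

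**Figure D2:**
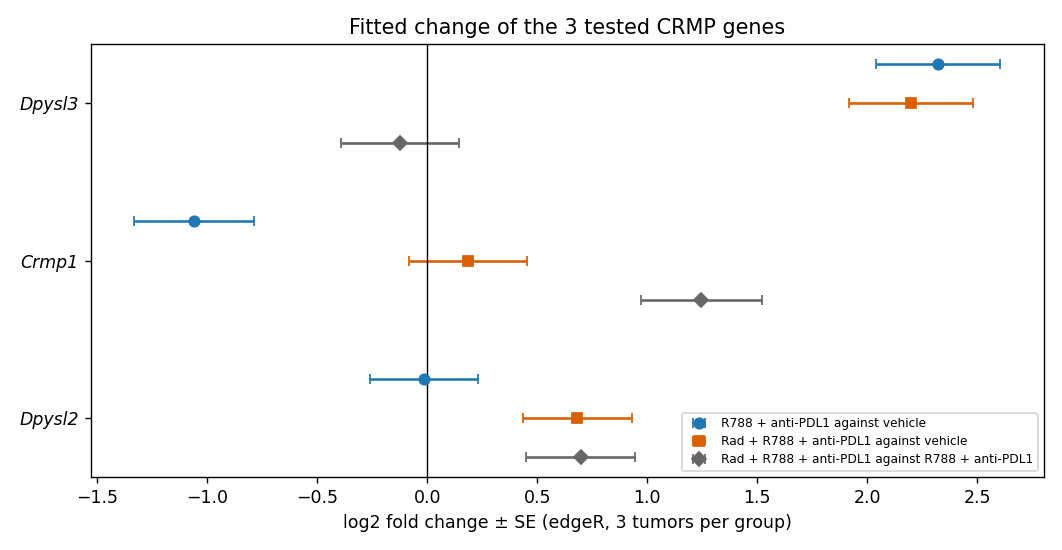
Fitted log2 fold change ± SE (x axis) of Dpysl3, Crmp1 and Dpysl2 (y axis) in the 3 comparisons of 3 tumors against 3, told apart by colour and symbol. Dpysl3 lies at 2.32 and 2.2 against vehicle and near 0 between the treated groups, Crmp1 at -1.06, 0.19 and 1.25, and Dpysl2 at -0.02, 0.68 and 0.70.

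Levels of different members were compared only after division by the merged exon length, as CPM per kilobase. In vehicle, Dpysl2 stood at 4.22 ± 0.179, Crmp1 at 3.42 ± 0.720 and Dpysl3 at 1.67 ± 0.513 CPM per kilobase (SD, n = 3). In R788 + anti-PDL1, Dpysl3 led with 8.33 ± 1.27, ahead of Dpysl2 with 4.17 ± 1.02 and Crmp1 with 1.64 ± 0.491 CPM per kilobase. In Rad + R788 + anti-PDL1 the levels were 7.65 ± 1.78 for Dpysl3, 6.78 ± 1.65 for Dpysl2 and 3.89 ± 0.347 for Crmp1. Dpysl3 was thus the lowest of the 3 in every vehicle tumor and the highest in every R788 + anti-PDL1 tumor. It was also the highest in Rad + R788 + anti-PDL1 replicates 2 and 3, whereas in replicate 1 Dpysl2 was higher (8.65 against 5.60 CPM per kilobase).

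As a share of the summed CPM per kilobase of the family, Dpysl3 took 25.4%, 14.03% and 14.7% in the vehicle tumors. It took 62.8%, 56.6% and 57.9% in R788 + anti-PDL1, and 31.5%, 46.8% and 46.6% in Rad + R788 + anti-PDL1. The Dpysl2 share was 45.2% ± 0.205 in vehicle, 29.3% ± 1.42 in R788 + anti-PDL1 and 37.1% ± 9.97 in Rad + R788 + anti-PDL1. For Crmp1 the shares were 36.5% ± 6.37, 11.4% ± 1.91 and 21.2% ± 1.75 (SD, n = 3). The summed level was 8.89 to 9.74 CPM per kilobase in vehicle, 12.1 to 17.3 in R788 + anti-PDL1 and 17.8 to 18.8 in Rad + R788 + anti-PDL1. Without Dpysl3, the gene that chose the family, the sum was 6.64 to 8.31 CPM per kilobase in vehicle, 4.51 to 7.51 in R788 + anti-PDL1 and 9.77 to 12.2 in Rad + R788 + anti-PDL1. The shares depend on the length used. With the longest transcript of each gene, Crmp1 rather than Dpysl2 led in vehicle (55.4% of the sum), and the Dpysl3 shares were 14.5%, 56.1% and 36.7%.

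**Figure D3:**
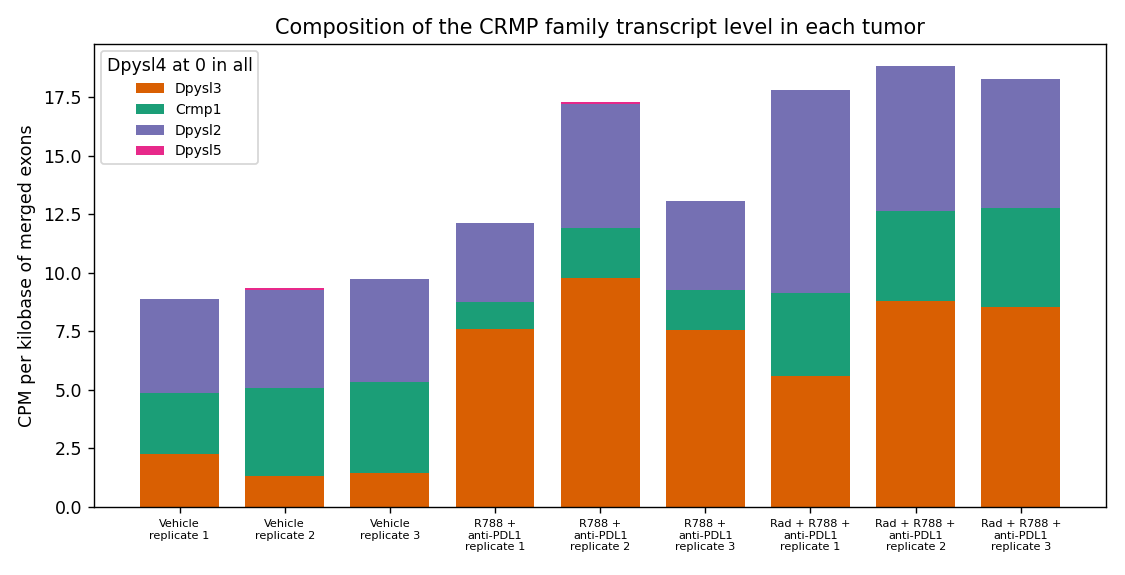
Stacked CPM per kilobase of merged exons (y axis) of Dpysl3, Crmp1, Dpysl2 and Dpysl5 in each of the 9 tumors (x axis). The summed level is 8.89 to 9.74 in vehicle and 12.1 to 18.8 in treated tumors, or 6.64 to 8.31 in vehicle and 4.51 to 7.51 in R788 + anti-PDL1 without Dpysl3, and the Dpysl3 segment is the largest in 5 of the 6 treated tumors.

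Of the 7 genes for class 3 semaphorins, the secreted ligands upstream of CRMPs, 0 passed the edgeR test in any comparison. In R788 + anti-PDL1 against vehicle their median log2 fold change was 1.16, beside -0.02 for all genes, and 3 had an unadjusted p under 0.05, as had 11.7% of all genes. These 3 were called by DESeq2. Sema3e, a ligand of plexin D1, held 1.77, 0.629 and 1.32 CPM in vehicle and 14.3, 3.90 and 6.76 CPM in R788 + anti-PDL1 (log2 2.75 ± 0.61, edgeR adjusted p = 0.0879). Sema3c went from 7.79, 1.98 and 1.64 CPM to 13.6, 21.3 and 15.7 CPM (log2 2.15 ± 0.55, adjusted p = 0.131). Sema3a, the founding collapsin, went from 15.02, 21.5 and 21.6 CPM to 33.6, 53.1 and 43.4 CPM (log2 1.16 ± 0.34, adjusted p = 0.189). In all 3 genes the R788 + anti-PDL1 tumors lay above the vehicle tumors, and 30.1% of all genes did not overlap in this comparison, in either direction.

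In Rad + R788 + anti-PDL1 the ligands parted. Sema3e held 3.76, 9.18 and 6.26 CPM, above vehicle (log2 2.38 ± 0.60, adjusted p = 0.213), and was the 1 ligand called by DESeq2. Without the first of these libraries its log2 fold change was 2.67. Sema3a held 9.15, 22.3 and 19.4 CPM, below every R788 + anti-PDL1 tumor (log2 -1.35 ± 0.34, or -1.05 without the first library, adjusted p = 0.189). It was the 1 ligand with an unadjusted p under 0.05 between the treated groups, beside 18.4% of all genes, and was called there by DESeq2. Against vehicle, 1 ligand had such a p, beside 13.2% of all genes. The list medians were 0.01 against vehicle and -0.37 between the treated groups, beside 0.05 and 0.04 for all genes.

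Among the 8 receptor genes, 0 passed in edgeR in any comparison. The median log2 fold changes were 0.72 for R788 + anti-PDL1 and 0.44 for Rad + R788 + anti-PDL1 against vehicle, and -0.41 between them. Nrp1, a co-receptor of semaphorin 3A and of vascular endothelial growth factor, held 9.83, 7.59 and 6.25 CPM in vehicle. It held 17.1, 40.2 and 24.9 CPM in R788 + anti-PDL1 and 11.8, 21.4 and 42.5 CPM in Rad + R788 + anti-PDL1. Both treated groups lay above vehicle (log2 1.80 ± 0.48 and 1.68 ± 0.48, adjusted p = 0.147 and 0.25), and DESeq2 called both. Without the first Rad + R788 + anti-PDL1 library the second was 2.05. Nrp2, the receptor of semaphorins 3C and 3F, held 16.1, 8.62 and 10.5 CPM in vehicle and 85.6, 23.5 and 70.1 CPM in R788 + anti-PDL1 (log2 2.35 ± 0.62, adjusted p = 0.143, called by DESeq2). In Rad + R788 + anti-PDL1 it held 7.01, 23.9 and 36.0 CPM, which overlapped both other groups. Unadjusted p fell under 0.05 for 2, 2 and 1 of the receptors in the 3 comparisons, beside 11.7%, 13.2% and 18.4% of all genes. Endothelial cells also express Nrp1, and the summed CPM of 6 endothelial markers was 34.5 to 44.8 in vehicle, 43.2 to 111.5 in R788 + anti-PDL1 and 47.7 to 59.4 in Rad + R788 + anti-PDL1, with none of the 6 at 0 in all libraries. Its part in the result was not tested.

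Of 14 genes for kinases that phosphorylate CRMPs or for their activators, 13 were tested and 0 passed in edgeR. Camk2a, the alpha subunit of calcium/calmodulin-dependent kinase II, came nearest. It held 88.2, 108.7 and 107.4 CPM in vehicle, 27.7, 25.3 and 28.1 CPM in R788 + anti-PDL1 and 21.8, 60.9 and 62.2 CPM in Rad + R788 + anti-PDL1. Every treated tumor lay below every vehicle tumor. The log2 fold changes were -1.91 ± 0.35 (adjusted p = 0.0525) and -1.07 ± 0.35 (adjusted p = 0.283), and both DESeq2 and limma-voom called the first. Without the first Rad + R788 + anti-PDL1 library, Camk2a was higher in Rad + R788 + anti-PDL1 than in R788 + anti-PDL1 (log2 1.2, adjusted p = 0.0163), against a log2 of 0.84 and an adjusted p of 0.253 with it, and its log2 fold change against vehicle was -0.69. Dyrk2, which phosphorylates CRMPs ahead of Gsk3b, was higher in R788 + anti-PDL1 than in vehicle by a log2 of 0.59 ± 0.18 without overlap (adjusted p = 0.203, called by DESeq2). Camk2d differed between the treated groups by -0.82 ± 0.25 (adjusted p = 0.222, called by DESeq2). Unadjusted p fell under 0.05 for 2, 2 and 3 of the 13 tested kinase genes, beside 11.7%, 13.2% and 18.4% of all genes. The median log2 fold changes of the kinase genes were 0.06, -0.22 and -0.13.

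Among 18 genes for binding partners of CRMPs and effectors of plexins, 16 were tested and 0 passed in edgeR. Their unadjusted p was under 0.05 for 2, 6 and 4 in the 3 comparisons, beside 11.7%, 13.2% and 18.4% of all genes. Mical2, an enzyme of the plexin-linked family that oxidises actin, held 8.46 ± 2.16 CPM in vehicle, 19.1 ± 6.09 in R788 + anti-PDL1 and 18.9 ± 1.92 in Rad + R788 + anti-PDL1 (SD, n = 3). Its log2 fold changes against vehicle were 1.17 ± 0.30 and 1.16 ± 0.30 (adjusted p = 0.124 and 0.215), the groups did not overlap, and DESeq2 called both. Numbl, a homolog of the CRMP2 partner Numb, was at 50.9 ± 2.98 CPM in vehicle and 37.3 ± 1.32 and 37.2 ± 4.50 CPM in the treated groups (adjusted p = 0.34 and 0.332). Kif5b, a kinesin that carries CRMP2 with tubulin, and the plexin effector Rnd1 had adjusted p of 0.277 and 0.305 in Rad + R788 + anti-PDL1 against vehicle, with log2 -1.07 ± 0.34 (-0.78 without the first Rad + R788 + anti-PDL1 library) and 1.4 ± 0.48. Between the treated groups, Itpr1, Klc1 and Mical3 had log2 differences of -0.79, 0.87 and -0.64, with adjusted p from 0.222 to 0.242. Klc1 held 142.8, 54.4 and 67.1 CPM in Rad + R788 + anti-PDL1, and without the first of these libraries its log2 difference was 0.34.

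Of 15 genes for the neuronal cytoskeleton and growth cone, the structures on which CRMPs act, 9 passed the filter and 0 passed the edgeR test. Stmn4, a tubulin-binding stathmin, held 0.497, 0.584 and 1.21 CPM in vehicle, 2.07, 6.00 and 1.48 CPM in R788 + anti-PDL1 and 9.37, 2.74 and 3.70 CPM in Rad + R788 + anti-PDL1. The treated tumors lay above vehicle (log2 2.06 ± 0.71 and 2.78 ± 0.73, adjusted p = 0.279 and 0.221), and DESeq2 called the second. Without the first Rad + R788 + anti-PDL1 library the second was 2.11. Its relative Stmn2 had 0, 0 and 3 counts in vehicle, 6, 47 and 17 in R788 + anti-PDL1 and 14, 6 and 4 in Rad + R788 + anti-PDL1. Stmn2 passed the low-count filter through treated tumors alone, so no p-value is read for it. Map1b, a microtubule-associated protein of growing axons, held 73.8 ± 6.03 CPM in vehicle and 149.7 ± 19.0 CPM in R788 + anti-PDL1 (adjusted p = 0.402). Tubb3, the neuronal beta-tubulin, held 8.95 ± 4.6 CPM in vehicle and 3.84 ± 0.123 CPM in Rad + R788 + anti-PDL1 (adjusted p = 0.31). Marcksl1, an actin-linked kinase substrate, was higher in Rad + R788 + anti-PDL1 than in R788 + anti-PDL1 by a log2 of 0.998 ± 0.307 (adjusted p = 0.222, called by DESeq2), and by 0.55 without the first Rad + R788 + anti-PDL1 library. Unadjusted p fell under 0.05 for 4, 3 and 1 of the 9 tested genes, beside 11.7%, 13.2% and 18.4% of all genes. Stmn2 is among the 4 and the 3. Of 4 genes for dihydropyrimidinase and pyrimidine breakdown, 1 was tested, and it did not pass (adjusted p from 0.47 to 0.811, unadjusted p under 0.05 in 0 comparisons, 0 calls by DESeq2). Over the 54 tested genes of the 6 lists, DESeq2 called 8, 4 and 3 in the 3 comparisons, where it called 4.83%, 3.84% and 5.16% of all genes. Limma-voom called 1, 0 and 0 of them, beside 0.697%, 0.0753% and 0.0502% of all genes. With sample quality weights it called 21, 18 and 14, beside 30.3%, 12.5% and 19.3% of all genes. The unadjusted edgeR p was under 0.05 for 13, 14 and 10 of them, beside the shares of 11.7%, 13.2% and 18.4% of all genes. Stmn2 is among the 13 and the 14, and among the 21 called with quality weights.

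**Figure D4:**
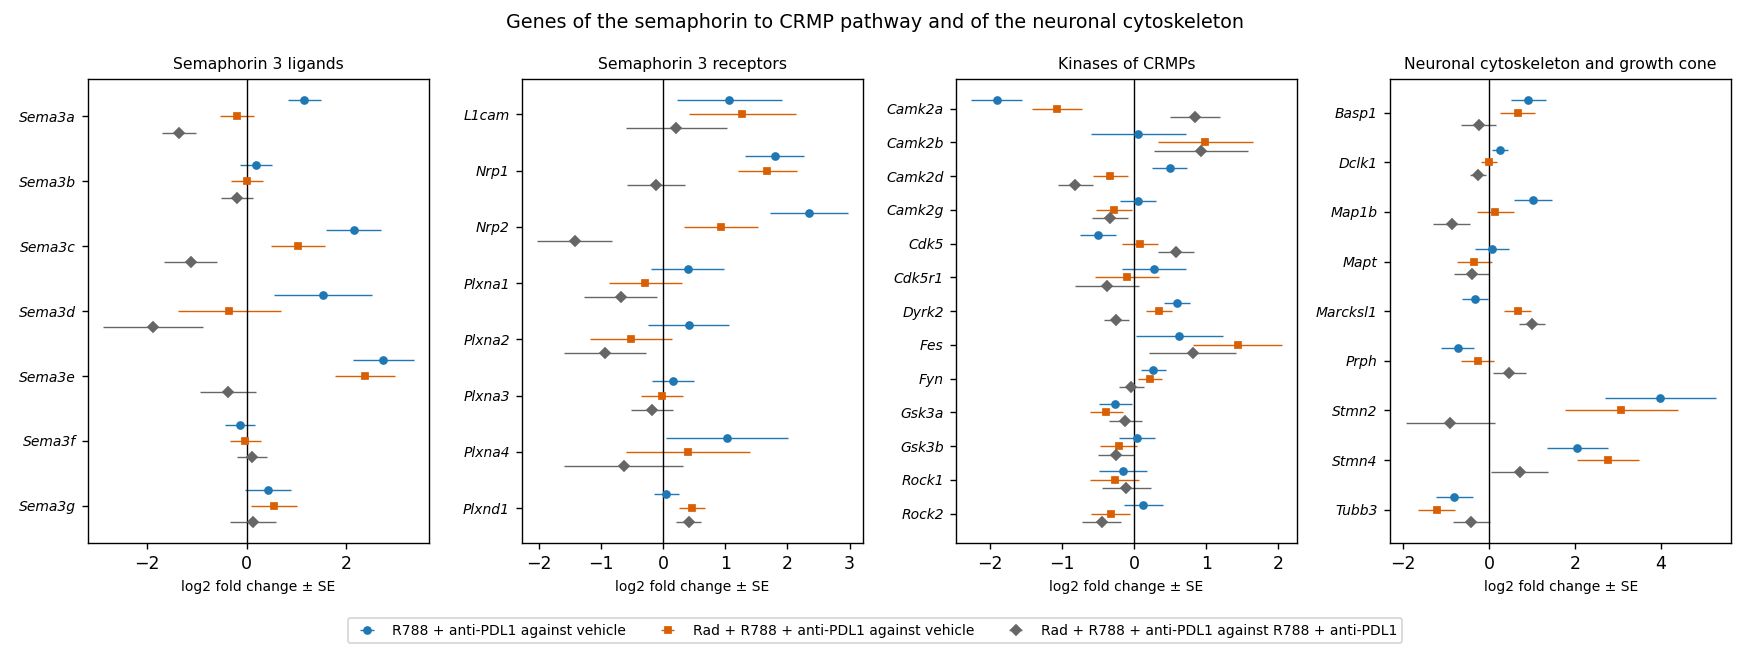
Log2 fold change ± SE (x axis) of the tested semaphorin 3 ligands, receptors, CRMP kinases and neuronal cytoskeleton genes (y axis, 1 panel per list) in the 3 comparisons, by colour and symbol. Sema3e and Nrp1 lie right of 0 against vehicle in both treated groups, Sema3a lies at 1.16 in R788 + anti-PDL1 against vehicle and at -1.35 between the treated groups, and Camk2a lies left of 0 in both treated groups.

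Across the 9 libraries, 11638 genes averaging 50 counts or more were ranked by likeness. The genes most like Dpysl3 in log2 CPM were Alpl (Pearson r = 0.985), Fam171b (0.979), Chmp4c (0.976), Ngef (0.970) and Alg2 (0.968). These were picked for the likeness, the libraries fall into the 3 treatment groups, and all values share library scaling, so r is a description. Alpl, the tissue-nonspecific alkaline phosphatase, held 11.7, 4.90 and 4.55 CPM in vehicle. It held 31.6, 38.7 and 33.6 CPM in R788 + anti-PDL1 and 30.1, 47.2 and 37.2 CPM in Rad + R788 + anti-PDL1, so that, as for Dpysl3, vehicle replicate 1 was the highest vehicle tumor. Ngef, a guanine nucleotide exchange factor that acts below ephrin receptors in growth cones, held 0.658 to 2.21 CPM in vehicle and 5.02 to 7.41 CPM in the treated tumors. Alg2, a mannosyltransferase, varied far less, from 46.3 to 61.9 CPM. Of the paralogs, Crmp1 stood at r = -0.37 and Dpysl2 at 0.28, ranked 9229 and 2229 of the 11638 genes. These raw values include the rise of Dpysl3 that chose the family. After the group mean was subtracted from each library, the nearest genes were Ccnd1 (r = 0.994), Ssc5d, Sparc, Lrrc8b and Palld (0.983), and Crmp1 and Dpysl2 stood at -0.06 and -0.24.

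Genes near the members were read for whether the change at Dpysl3 extended along its chromosome. Of the 3 tested genes within 500 kb of Dpysl3, Gm3650 and Eif3j2 had log2 fold changes of -0.24 and -0.19 in R788 + anti-PDL1 against vehicle and 1.58 and -0.71 in Rad + R788 + anti-PDL1 against vehicle, with edgeR adjusted p from 0.655 to 0.976. The third, Ppp2r2b, a brain-enriched regulatory subunit of protein phosphatase 2A that lies 261513 bases away, had 0 counts in all 3 vehicle tumors. It had 24, 23 and 30 counts in R788 + anti-PDL1 and 10, 3 and 3 in Rad + R788 + anti-PDL1. With 0 counts in vehicle it passed the low-count filter through treated tumors alone, so no p-value is read for it. Around Crmp1 6 genes were tested, around Dpysl2 5, around Dpysl4 8 and around Dpysl5 32, with lowest adjusted p of 0.229, 0.221, 0.369 and 0.222 over the 3 comparisons. The neighbour with the lowest adjusted p at Dpysl2 was Stmn4, the stathmin gene described above, which lies 441184 bases away. The medians of their log2 fold changes lay between -0.17 and 0.40.

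Markers of the cell types that a tumor piece can hold were set beside these values. Of the noradrenergic markers, Isl1, a LIM homeodomain factor of sympathetic neuroblasts, had 0 counts in all vehicle tumors. It had 80, 48 and 63 counts in R788 + anti-PDL1 and 14, 27 and 21 in Rad + R788 + anti-PDL1. Isl1 passed the low-count filter through treated tumors alone. Its call as higher in R788 + anti-PDL1 than in vehicle (edgeR adjusted p = 0.0344) is therefore not read as support. Gata3, another factor of the list, had a fitted difference of the other sign. It held 11.4, 0.180 and 3.01 CPM in vehicle, 0.661, 0.306 and 0.328 CPM in R788 + anti-PDL1 and 5.90, 6.04 and 6.81 CPM in Rad + R788 + anti-PDL1. Its log2 difference of R788 + anti-PDL1 from vehicle was -3.48 ± 1.08 (adjusted p = 0.227), and that between the treated groups 3.85 ± 1.10 (adjusted p = 0.221), and DESeq2 called both. The 12 noradrenergic markers summed to 491.9 to 616.3 CPM in vehicle, 628.9 to 699.3 CPM in R788 + anti-PDL1 and 624 to 971.9 CPM in Rad + R788 + anti-PDL1, so vehicle was lowest, as for Dpysl3. The highest sum, 971.9 CPM, was that of the library that stood apart, and the other 2 of its group held 701.7 and 624 CPM. Most of this sum was Hand2 (372.6 ± 56.2 CPM in vehicle and 633.3 ± 207.3 CPM in Rad + R788 + anti-PDL1, adjusted p = 0.292; log2 0.77, or 0.50 without the first Rad + R788 + anti-PDL1 library) and Mycn. The mouse gene Mycn held 166.9, 183.4 and 128.3 CPM in vehicle and 193.7, 126.6 and 250.3 CPM in R788 + anti-PDL1. In Rad + R788 + anti-PDL1 it held 93.3, 130 and 141.4 CPM. Its counts did not order the groups as those of Dpysl3 did.

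Neuronal markers (6 genes) summed to 1.57 to 3.31 CPM in vehicle, 5.43 to 10.5 CPM in R788 + anti-PDL1 and 1.03 to 6.58 CPM in Rad + R788 + anti-PDL1. Elavl4 and Snap25 had 0 counts in all libraries, and 2 of the 6, Syt1 and Syn1, passed the filter. Mean Syt1 was 0.881 CPM in vehicle and 5.80 CPM in R788 + anti-PDL1, and mean Syn1 1.28 and 2.47 CPM (edgeR adjusted p = 0.371 and 0.681). Fibroblasts are also known to express Dpysl3. Their 9 markers summed to 3096 to 3798 CPM in vehicle, 2965 to 5534 CPM in R788 + anti-PDL1 and 2567 to 4998 CPM in Rad + R788 + anti-PDL1, with overlap of all 3 groups and no defining marker at 0. Single markers did not all follow the sum. Fap, a protease of activated fibroblasts, held 4.52 ± 0.884 CPM in vehicle, 7.07 ± 0.978 in R788 + anti-PDL1 and 13.2 ± 2.41 in Rad + R788 + anti-PDL1 (adjusted p against vehicle 0.421 and 0.098), and Thy1 held 6.86 ± 0.933, 13.01 ± 5.61 and 12.4 ± 4.10 CPM (adjusted p = 0.362 and 0.365). For both genes each treated group lay above vehicle without overlap, as for Dpysl3. Of the 9 markers, 2 in R788 + anti-PDL1 and 4 in Rad + R788 + anti-PDL1 did so. In either direction, 30.1% and 20.5% of all genes did not overlap with vehicle. By fitted difference from vehicle, 7 markers were higher and 2 lower in R788 + anti-PDL1. In Rad + R788 + anti-PDL1, 6 were higher and 3 lower. DESeq2 called Col1a2 higher in R788 + anti-PDL1 and Fap higher in Rad + R788 + anti-PDL1. For 8 smooth muscle and pericyte markers the sums were 244.3 to 254 CPM, 184.4 to 328.9 CPM and 234.5 to 299.2 CPM, and for 8 Schwann cell and glial markers 13.8 to 30.3 CPM, 21.4 to 27.4 CPM and 6.86 to 16.1 CPM. Macrophage markers summed to 134.4 to 235.5 CPM in vehicle, 281.7 to 287.2 CPM in R788 + anti-PDL1 and 147.5 to 834.4 CPM in Rad + R788 + anti-PDL1. Keratinocyte markers summed to 4.94 to 7.73 CPM in vehicle, 1.9 to 63.3 CPM in R788 + anti-PDL1 and 46.6 to 75.2 CPM in Rad + R788 + anti-PDL1, with Krt5 higher than vehicle in the last group without overlap (log2 3.53 ± 0.95, adjusted p = 0.222, called by DESeq2). T cell markers summed to 1.7 to 3.98 CPM in vehicle, 4.13 to 23.8 CPM in R788 + anti-PDL1 and 1.84 to 31.7 CPM in Rad + R788 + anti-PDL1. Skeletal muscle and adipocyte markers summed to at most 21.9 and 42.7 CPM in any library. Of the 46 tested genes of these marker lists, edgeR called 1 (Isl1), 0 and 0 in the 3 comparisons, with an unadjusted p under 0.05 for 15, 14 and 12, where 11.7%, 13.2% and 18.4% of all genes had one. DESeq2 called 8, 6 and 4, where it called 4.83%, 3.84% and 5.16% of all genes, and limma-voom 2, 1 and 0, where it called 0.697%, 0.0753% and 0.0502%. Isl1, which passed the filter through treated tumors alone, is in the DESeq2, limma-voom and unadjusted p counts of both comparisons with vehicle. These counts against vehicle are not read as support. The part of these cell types in the CRMP values was not tested.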

How the data were processed

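RNA was sequenced from 9 whole tumors after polyA selection, 3 per group. Per the study's methods the authors mapped reads to mm10 with STAR and ran Salmon within bcbio for quantification. The submitters' processing notes list STAR 2.6.1d, Salmon 1.4.0, SAMtools 1.9, Picard 2.26 and MultiQC 1.11. The authors deposited estimated counts per gene symbol as whole numbers, without normalization. The labels and methods conflict on the RNA source (tumor or macrophages) and on the sequencer, and the strandedness is not given in the sources used here.

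Here, counts were filtered with filterByExpr (minimum count 10), TMM-normalised and fitted in edgeR 4.0.16 (R 4.3.3) by the robust quasi-likelihood F test, with all 9 libraries in 1 fit, no covariate, and Benjamini-Hochberg adjustment over the 15931 genes. Genes were called at an adjusted p under 0.05. Tests were two-sided. CPM are TMM-normalised unless total counts are named. Intervals and the floor of 3 counts cover what the fit or the counting gives, and reads are not independent molecules. Symbols matched GENCODE M21 for 98.9%. Alternatives were DESeq2 1.42.0, limma-voom (limma 3.58.1) with and without sample quality weights, other normalizations, no filter, 6 libraries only, a replicate block and leaving out each library. Total-count scaling, and listed genes without the library that stood apart, were added after the data had been seen. The scripts were tested on simulated data.

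The 5 members, the lists of related genes and the markers were chosen with earlier results of these data known. All members were named. From each related list, called genes were named, or else up to 3 with the lowest unadjusted p, together with the 5 genes most like Dpysl3 in raw and in group-centred values. Ppp2r2b, Alpl, Ngef and Alg2 values, the Hand2, Mycn, Gata3, Fap, Thy1 and Krt5 values, Camk2a in Rad + R788 + anti-PDL1 and other values of listed genes were chosen for display after they had been seen. Some items of the marker lists are not reported here.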

Additional observations from a re-analysis of the deposited data

How the results depend on the processing

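The number of members called includes Dpysl3, which chose the family, so nothing is read from it against vehicle. It was 1, 1 and 0 for R788 + anti-PDL1 against vehicle, Rad + R788 + anti-PDL1 against vehicle, and between the treated groups. DESeq2 gave 2, 1 and 1, and limma-voom with sample quality weights 2, 1 and 2, where Crmp1 was the added member and Dpysl2 joined between the treated groups. With total-count scaling the numbers were 0, 0 and 0, and with only the 6 libraries compared 1, 0 and 0. Leaving out single libraries gave 0 to 1, 0 to 1 and 0. The number became 0 for R788 + anti-PDL1 against vehicle without vehicle replicates 2 or 3 or R788 + anti-PDL1 replicates 1 or 3, and for Rad + R788 + anti-PDL1 without vehicle replicates 2 or 3 or Rad + R788 + anti-PDL1 replicates 2 or 3. In these fits 0 to 4 of all genes were called. Fewer tumors enter every fit that leaves out a library, also those that kept the call. Without vehicle replicate 1, 1 member was called against vehicle in each treated group, beside 75 and 22 of all genes. Without the first Rad + R788 + anti-PDL1 library it was 1 member beside 57 genes for that group against vehicle. The cause of these changes was not tested.

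With the replicate block, 0 members were called in each comparison, beside 0, 3 and 0 of all genes. Whether the numbers pair the tumors was not settled. Deviations of tumors with the same number correlated at -0.0463 to 0.233, and not every tumor correlated best with its own number. Between vehicle and Rad + R788 + anti-PDL1, however, the correlations were 0.233, 0.191 and 0.0538 for replicates 1 to 3. There, vehicle replicates 1 and 2 correlated best with their own number.

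Calls over all genes were 108, 7 and 1. They were 770, 611 and 822 with DESeq2, 4835, 1993 and 3080 with quality weights, 199, 70 and 24 without a filter, 594, 1 and 0 with 6 libraries, 111, 12 and 8 with limma-voom, and 0, 1 and 0 with total-count scaling, which moved the median log2 fold change of all genes by 0.145, -0.0469 and -0.18.

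Directions turned only where the main difference was near 0. The Dpysl2 log2 difference of R788 + anti-PDL1 from vehicle was 0.0119 with DESeq2, 0.0116 with RLE, 0.0746 with upper-quartile normalization, 0.015 without a filter, 0.0279 with 6 libraries, 0.137 with total-count scaling, and -0.23 to 0.112 with single libraries left out. The Dpysl3 difference between the treated groups was 0.16 with quality weights and -0.24 to 0.0626 with single libraries left out. The Dpysl3 log2 fold changes against vehicle stayed at 2.17 to 2.62 and 2.05 to 2.56 over the alternatives. Those of Crmp1 stayed at -1.28 to -0.85 for R788 + anti-PDL1 against vehicle and 1.04 to 1.47 between the treated groups. Dpysl2 in Rad + R788 + anti-PDL1 stayed at 0.45 to 0.81 against vehicle and 0.46 to 0.91 against R788 + anti-PDL1. Depth limits Dpysl4 and Dpysl5, whose counts were at or near 0.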
